A study of Mus musculus with 8 samples.

Results

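The genes described here are 9 nuclear receptor coregulators, picked by name with earlier results of these data known. They are the p160 coactivators Ncoa1, Ncoa2 and Ncoa3, the acetyltransferases Ep300 and Crebbp, the coactivators Ncoa6 and Ppargc1b, and the corepressors Nrip1 and Ncor1. Each was found at 1 of the 23735 loci of the table, and all 9 were among the 11272 loci tested, which are those that reached 1 RPKM in 2 or more libraries. RPKM, a read count divided by transcript length and library depth, is a level per length. Comparing it between genes depends on the lengths used, which no source used here gives. For Ncoa2, GENCODE vM1 has 14344 exon bases in all and 4897 in the longest coding transcript. Ppargc1b reached 1 RPKM in 5 of 8 libraries, and the other genes did so in all 8.

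The libraries were made from RNA of peritoneal macrophages of C57BL/6J mice aged 8 weeks. There were 4 groups of 2 libraries: KO with lipopolysaccharide (LPS, a ligand of TLR4 from the outer membrane of bacteria), KO untreated, WT with LPS, and WT untreated. KO stands for MED1ΔMac, a loss of the Mediator subunit MED1 in macrophages, and WT for MED1fl/fl, so the WT mice carried the floxed allele too. LPS was given at 50 ng/mL, and all cells were held for 6 h. The sources used here do not give the Cre driver, the deleted exons, the number of animals per library or the meaning of the library letters A and B. A p-value here therefore measures only the spread between these libraries, which may be technical.

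Nuclear receptors bound to a ligand take up coactivators, which acetylate or methylate histones and hand the gene on to Mediator, in which MED1 is the subunit that contacts the receptor. Without an agonist, many receptors instead hold corepressors that carry histone deacetylases. Coactivators meet the receptor through short LXXLL helices, and in macrophages several coregulators also serve the NF-kB and AP-1 factors that LPS sets in motion.

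The LXXLL boxes by which the p160 coactivators meet the receptor are coded in a central run of each protein, and the coding DNA of that run shows how far the family members differ in sequence. It was read from the GENCODE vM1 transcripts (mm9), in which Ncoa1 codes for 7, Ncoa2 for 4 and Ncoa3 for 6 LXXLL motifs in all. Capitals mark the 5 codons of the motif, with the 2 codons on either side in lower case.
Ncoa1 box 1: cacaagCTAGTACAGCTATTGactacg
Ncoa2 box 1: accaaaCTCCTGCAGCTGCTGaccacc
Ncoa3 box 1: aagaaaCTGCTGCAGTTACTCacgtgc
Ncoa1 box 2: aaaattCTGCACCGGCTTTTAcaggag
Ncoa2 box 2: aagattTTGCACAGACTCTTAcaggac
Ncoa3 box 2: cggattTTGCACAAGTTGCTGcagaat
Ncoa1 box 3: cagctcCTACGCTACCTTTTAgacaaa
Ncoa2 box 3: gcactaCTGCGCTATTTGCTCgacaaa
Ncoa3 box 3: gctctgCTTAGATACCTGCTGgacagg
These boxes lie at codons 637 to 641, 694 to 698 and 755 to 759 of Ncoa1, 641 to 645, 690 to 694 and 745 to 749 of Ncoa2, and 613 to 617, 677 to 681 and 729 to 733 of Ncoa3. The motif is kept while its codons differ, and the longest coding stretch shared without a mismatch was 15 bases between Ncoa1 and Ncoa2, 15 between Ncoa1 and Ncoa3, and 20 between Ncoa2 and Ncoa3. Between Ep300 and Crebbp it was 29 bases. The sources used here do not say how reads that match more than 1 gene were counted.

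Elsewhere among the coregulators, the longest coding transcripts held 10 LXXLL motifs in Nrip1, 3 each in Ep300, Crebbp and Ppargc1b, 2 in Ncoa6 and 1 in Ncor1. The coded lengths ran from 1030 residues for Ppargc1b and 1161 for Nrip1 to 2412 for Ep300, 2441 for Crebbp and 2454 for Ncor1. Nrip1 was thus among the shortest of the 9 and had the most motifs. Of its motifs, 2 overlap and were counted apart, at codons 501 to 505 and 502 to 506.

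The start sites of Ncoa1, which fell with LPS, and Crebbp, which did not pass the test, a pair chosen after their values were seen, are set side by side as RefSeq promoters (GRCm38.p6, 300 bases, most of them before the start, minus strand of chr12:4477133-4477432 and of chr16:4213355-4213654). Capitals mark the GC box GGGCGG on either strand.
Ncoa1 promoter: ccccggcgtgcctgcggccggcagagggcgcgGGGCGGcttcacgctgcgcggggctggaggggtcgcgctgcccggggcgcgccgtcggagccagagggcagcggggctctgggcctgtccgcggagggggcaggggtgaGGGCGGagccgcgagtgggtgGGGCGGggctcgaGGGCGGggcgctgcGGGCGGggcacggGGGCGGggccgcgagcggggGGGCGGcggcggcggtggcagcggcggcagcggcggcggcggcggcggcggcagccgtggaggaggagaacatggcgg
Crebbp promoter: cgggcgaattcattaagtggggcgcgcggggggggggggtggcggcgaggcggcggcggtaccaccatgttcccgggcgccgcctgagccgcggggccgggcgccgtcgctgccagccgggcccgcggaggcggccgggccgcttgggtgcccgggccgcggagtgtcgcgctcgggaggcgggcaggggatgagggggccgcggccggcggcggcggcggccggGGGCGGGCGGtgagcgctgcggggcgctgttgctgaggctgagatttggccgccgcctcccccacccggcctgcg
The Ncoa1 window held 7 GC boxes at 84.7% G and C, and the Crebbp window held 2, which overlap, at 82.0%. A GC box on either strand was found in 35.7% of 32851 mouse promoters of the same length, where the median G and C content was 52.7%. The ratio of observed to expected CpG was 1.04 for Ncoa1 and 1.02 for Crebbp, against a median of 0.38, and Ep300 had 1 GC box at 72.3% G and C. Neither printed window held the letters TGANTCA (AP-1, found in 7.8% of promoters) or AGGTCA (a nuclear receptor half-site, in 16.3%), searched on both strands. Of these motifs, only the number of GC boxes differed between the 2 windows.

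Over the whole series, depth was estimated at 6.8 to 14.1 M reads per library from the steps between low values, and 10192 to 11027 loci reached 1 RPKM. Macrophage markers (Adgre1, listed as Emr1, Csf1r, Cd68, Lyz2, Fcgr1 and Mertk) were above 0 in every library for 6 of 6 genes, and their summed level was 5755 to 18960 RPKM with LPS and 10690 to 34740 untreated, most of it Lyz2. B cell markers were also above 0 in every library for 4 of 4 genes, at a summed 378 to 1332 RPKM with LPS and 515 to 1586 untreated. Mast cell markers summed to 34.2, 82.9, 34.4 and 33.1 RPKM in the B libraries (KO with LPS, KO, WT with LPS, WT) and to at most 9.46 in the A libraries. Neutrophil markers, nearly all S100a8, summed to 69.4 to 121 RPKM with LPS and 39.8 to 63.9 untreated, with S100a9 at most 5.63 and Mpo at most 0.929 RPKM and Ly6g not matched. Large peritoneal macrophage markers summed to 43.0 to 66.6 RPKM with LPS and 31.3 to 131.5 untreated. Within that sum Gata6 had 3.59 to 4.21 RPKM with LPS and 7.24 to 11.65 untreated. Icam2 had 14.1 to 19.07 with LPS and 22.9 to 48.39 untreated. Both were lower in every LPS library, as were 30.0% of all loci tested. Timd4 overlapped, at 20.2 to 43.99 with LPS, 1.134 and 2.475 in the untreated A libraries (KO, WT) and 71.45 and 42.93 in the untreated B ones. Dendritic cell markers summed to 2.38 to 2.92 RPKM with LPS and 1.35 to 2.42 untreated. Mesothelial markers summed to at most 1.05 RPKM in any library.

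The targeted gene was not called lower in KO. Med1 had 24.4 and 20.3 RPKM in KO with LPS (A, B) and 17.6 and 23.4 in KO untreated, against 24.7 and 21.6 in WT with LPS and 21.7 and 24.8 in WT untreated. The KO and WT ranges overlapped, though Med1 was lower in KO in 4 of 4 pairs of the same letter and treatment, and KO minus WT was -0.12 in log2 terms (95% interval -0.47 to 0.24, limma adjusted p = 0.999). A locus-wide level is no check of a deletion of unknown exons, so KO below means the libraries labelled KO.

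With LPS, averaged over both genotypes (4 libraries against 4), 3 of the 9 coregulators fell: the p160 coactivators Ncoa1 and Ncoa3, and Ppargc1b. None rose. Calls were made at an adjusted p under 0.05 over all loci tested, and by that rule 30.3% of the loci were called, 21.8% lower and 8.46% higher. A share of 3 in 9 lower thus sits close to a background in which lower calls were common. All 9 log2 changes were negative, as were 71.1% of those of all loci, and under median-ratio scaling of the libraries Crebbp, Nrip1 and Ncoa6 turned positive, as Crebbp and Nrip1 did under quantile normalization. The median was -0.39 for the 9 genes and -0.26 for all loci. Median-ratio scaling shifted the median of all loci to -0.01. Each averaged LPS change of the 9 genes is therefore also given relative to the median locus, and those of partner genes are as deposited.

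**Figure D1:**
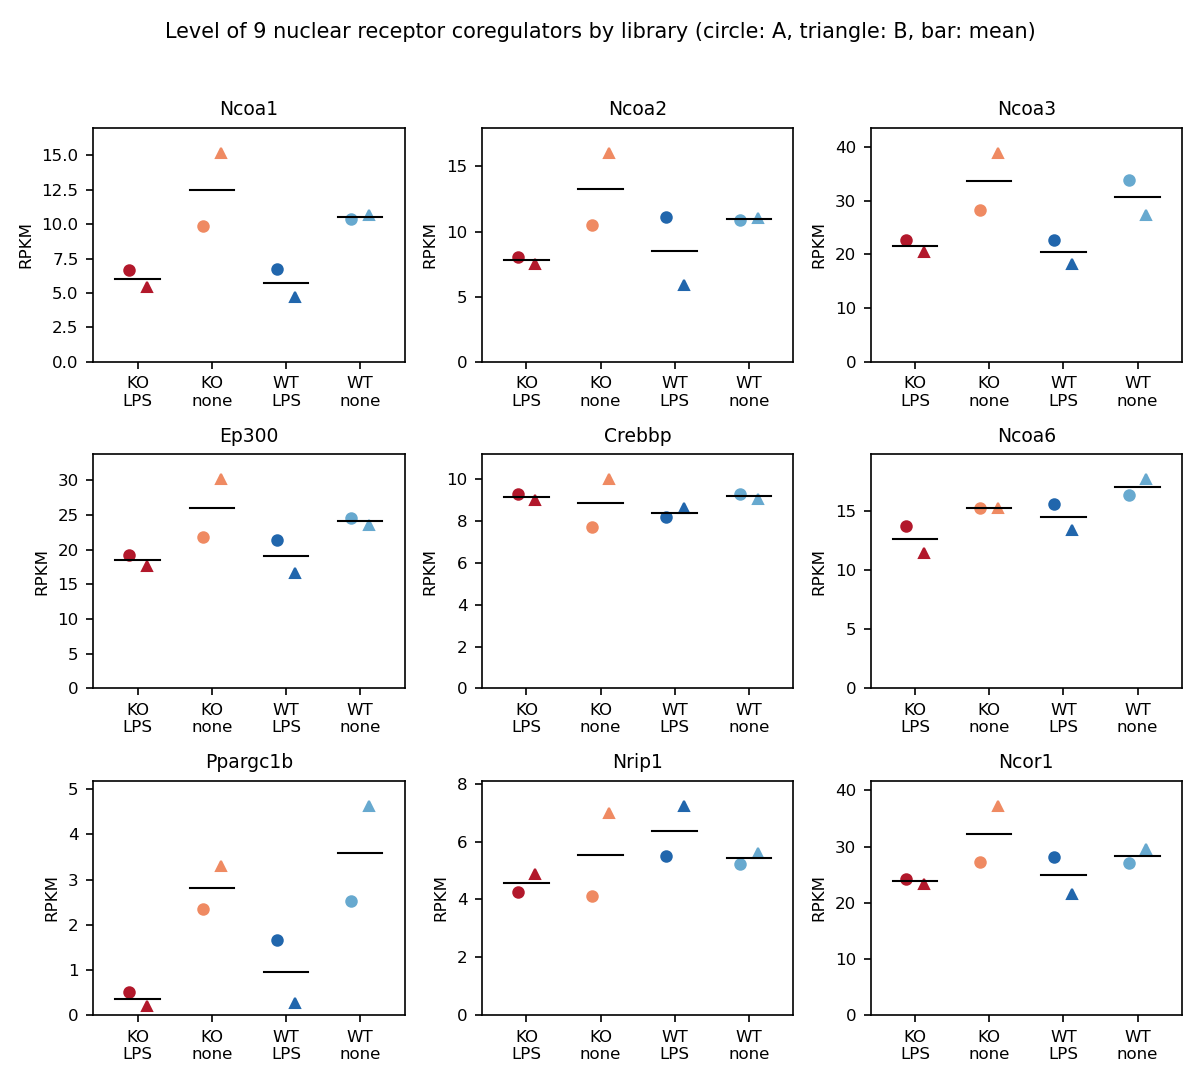
RPKM of each of the 9 coregulators (vertical axes, from 0, one scale per gene) in the 8 libraries, in the order KO with LPS, KO untreated, WT with LPS, WT untreated; circles are library A, triangles library B and bars the mean of the 2. For Ncoa1, Ncoa3, Ep300 and Ppargc1b all 4 LPS libraries lie below all 4 untreated ones, while Crebbp lies between 7.73 and 9.99 RPKM throughout.

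Ncoa1 (SRC-1), the founding p160 coactivator, lies on mm9 chromosome 12, 4247363 to 4484060, minus strand. It had 6.65 and 5.41 RPKM in KO with LPS (A, B) and 9.84 and 15.2 in KO untreated. In WT it had 6.75 and 4.71 RPKM with LPS, against 10.4 and 10.7 untreated. All 4 LPS libraries lay below all 4 untreated ones, and KO untreated B was the highest. Its mean was 5.88 ± 0.99 RPKM with LPS and 11.5 ± 2.47 untreated (SD, n = 4 each), and it fell by 0.86 on the log2 scale (SE 0.19, limma adjusted p = 0.0167), which is -0.59 relative to the median locus. The change by genotype was -0.92 in KO (adjusted p = 0.0803) and -0.79 in WT (adjusted p = 0.107). Under median-ratio scaling it was still called (-0.59, adjusted p = 0.0216).

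Ncoa3 (SRC-3), the p160 coactivator first known as a gene amplified in breast cancer, lies on mm9 chromosome 2, 165818136 to 165898742, plus strand. Its level was 22.6 and 20.5 RPKM in KO with LPS and 28.2 and 38.9 in KO untreated. The WT libraries held 22.6 and 18.1 RPKM with LPS and 33.9 and 27.4 untreated. The LPS and untreated ranges did not overlap, and KO untreated B was again the highest. Ncoa3 averaged 21.0 ± 2.13 RPKM with LPS and 32.1 ± 5.37 untreated (SD, n = 4 each), and fell by 0.58 on the log2 scale (SE 0.16, limma adjusted p = 0.0351). Relative to the median locus that is -0.32, and the call was lost under median-ratio scaling (-0.29, adjusted p = 0.141) and quantile normalization (-0.41, adjusted p = 0.0742). Its exons overlap those of Sulf2 on the other strand over 154 bases, and no source used here gives the strandedness of the counting.

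Ncoa2 (GRIP1, also called TIF2), which in macrophages is known as a partner of the glucocorticoid receptor, lies on mm9 chromosome 1, 13129186 to 13364164, minus strand. It did not pass the test. Ncoa2 had 8.03 and 7.54 RPKM in KO with LPS and 10.5 and 16.1 in KO untreated, against 11.1 and 5.90 in WT with LPS and 10.9 and 11.1 in WT untreated. WT with LPS A, at the level of the untreated libraries, is the one that made the groups overlap. The averaged change was -0.53 (SE 0.22, limma adjusted p = 0.103), and -0.27 relative to the median locus. Without that library Ncoa2 was called (-0.74, adjusted p = 0.022), while without WT with LPS B it was at -0.33 (adjusted p = 0.233), under median-ratio scaling at -0.26 (adjusted p = 0.257) and under quantile normalization at -0.27 (adjusted p = 0.24).

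In each library the 3 p160 levels were added, as a description chosen after the values were seen. The sum was 28.8 to 40.4 RPKM with LPS and 48.6 to 70.1 RPKM untreated, with no overlap. Ncoa3 made up most of it in both states, at 55.8 to 63.1% with LPS and 55.5 to 61.5% untreated. The share of Ncoa1 was 16.2 to 17.8% with LPS and 18.8 to 21.8% untreated, again with no overlap. As a ratio within a library, this share is the same under a scaling by 1 factor per library, such as median-ratio scaling, but not under quantile normalization.

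Ppargc1b (PGC-1β), a coactivator that drives genes of mitochondrial oxidative metabolism, had the lowest level of the 9 and, with a pseudocount of 1, the largest change. It lies on mm9 chromosome 18, 61457790 to 61560085, minus strand. Its level was 0.514 and 0.189 RPKM in KO with LPS and 2.35 and 3.29 in KO untreated, against 1.66 and 0.267 in WT with LPS and 2.53 and 4.63 in WT untreated. Every LPS library was below every untreated one, and WT with LPS A stood well above the other 3 LPS libraries. The mean was 0.657 ± 0.682 RPKM with LPS and 3.2 ± 1.04 untreated (SD, n = 4 each), a ratio of means of 0.205.

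By the depth estimate and a length of 3330 bases, that of its longest coding transcript, Ppargc1b had about 17 and 5 reads in KO with LPS. It had about 110 and 81 in KO untreated, 61 and 6 in WT with LPS, and 72 and 159 in WT untreated. The length behind the deposited RPKM is not known. Ppargc1b fell by 1.39 on the log2(RPKM + 1) scale (SE 0.29, limma adjusted p = 0.0141), a scale that understates the change of a gene this low, and the change was -1.13 relative to the median locus. With a pseudocount of 0.1 in place of 1 the change was -2.46 (adjusted p = 0.0192), and with 5 it was -0.54 (adjusted p = 0.0147), smaller than that of Ncoa1 on the same scale (-0.60). By genotype it was -1.50 in KO (adjusted p = 0.0707) and -1.28 in WT (adjusted p = 0.0975). Ranked from the lowest change among all loci tested, Ppargc1b was at percentile 3.8, Ncoa1 at 12.9 and Ncoa3 at 25.3. Ppargc1b met the filter through its untreated libraries, since WT with LPS A was the only LPS library to reach 1 RPKM. With no filter it was still called, at -1.39 (limma adjusted p = 0.0295).

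Of the related acetyltransferases that the p160 proteins recruit, neither passed the test, and their values differed. Ep300 (p300, mm9 chromosome 15, 81415781 to 81482507, plus strand) had 19.3 and 17.7 RPKM in KO with LPS and 21.8 and 30.2 in KO untreated, against 21.4 and 16.7 in WT with LPS and 24.6 and 23.6 in WT untreated. All 4 LPS libraries were below all 4 untreated ones, as with Ncoa1, Ncoa3 and Ppargc1b, which makes 4 of 9 genes, and 30.0% of all loci tested showed the same order. The gap was small, with 21.4 RPKM the highest LPS value and 21.8 the lowest untreated one. The averaged change of Ep300 was -0.39 (SE 0.16, limma adjusted p = 0.0947), and -0.13 relative to the median locus. It was -0.11 under median-ratio scaling (adjusted p = 0.532) and -0.20 under quantile normalization (adjusted p = 0.254).

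Crebbp (CBP, mm9 chromosome 16, 4084048 to 4213404, minus strand) had 9.29 and 8.995 RPKM in KO with LPS and 7.73 and 9.99 in KO untreated. The WT libraries gave 8.20 and 8.61 RPKM with LPS and 9.30 and 9.08 untreated. The groups overlapped over nearly their whole range. Crebbp averaged 8.77 ± 0.47 RPKM with LPS and 9.02 ± 0.95 untreated (SD, n = 4 each), a change of -0.03 (SE 0.14, 95% interval -0.36 to 0.29, limma adjusted p = 0.868) that is 0.23 relative to the median locus. The ratio of Ep300 to Crebbp was 2.08 and 1.97 in KO with LPS, 2.83 and 3.02 in KO untreated, 2.61 and 1.94 in WT with LPS and 2.64 and 2.61 in WT untreated, so the LPS and untreated ranges met at 2.61.

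Ncoa6, the scaffold that joins receptors to a histone H3 methyltransferase complex, lies on mm9 chromosome 2, 155216401 to 155299630, minus strand. It had 13.7 and 11.5 RPKM in KO with LPS and 15.3 and 15.2 in KO untreated, against 15.6 and 13.4 in WT with LPS and 16.3 and 17.7 in WT untreated. The LPS and untreated libraries overlapped through WT with LPS A, which was just above KO untreated. The averaged change was -0.24 (SE 0.13, limma adjusted p = 0.20), and relative to the median locus it was 0.03.

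Nrip1 (RIP140), which represses genes of oxidative metabolism and in mouse macrophages is also known as a coactivator of NF-kB, lies on mm9 chromosome 16, 76287645 to 76374072, minus strand. Its level was 4.25 and 4.89 RPKM in KO with LPS and 4.11 and 6.99 in KO untreated, against 5.51 and 7.24 in WT with LPS and 5.24 and 5.62 in WT untreated. LPS and untreated libraries overlapped fully, with means of 5.47 ± 1.28 RPKM with LPS and 5.49 ± 1.19 RPKM untreated (SD, n = 4 each). The averaged change was -0.01 (SE 0.19, 95% interval -0.45 to 0.44, limma adjusted p = 0.983), which is 0.26 relative to the median locus. Its sign varied with the setting, being positive under median-ratio scaling (0.25) and quantile normalization (0.29).

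Ncor1, the corepressor that holds HDAC3 at unliganded receptors, lies on mm9 chromosome 11, 62129928 to 62272043, minus strand. Ncor1 had 24.2 and 23.4 RPKM in KO with LPS and 27.2 and 37.2 in KO untreated, against 28.1 and 21.6 in WT with LPS and 27.1 and 29.6 in WT untreated. The ranges overlapped through WT with LPS A, and KO untreated B was the highest. The averaged change was -0.30 (SE 0.16, limma adjusted p = 0.18), close to the median locus, from which it differed by -0.03. Its exons overlap genes of the other strand, mainly Pigl, over 88 bases.

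The ratio of Ncor1 to the p160 sum, set up after the values were seen and not tested, was 0.649 and 0.699 in KO with LPS and 0.560 and 0.531 in KO untreated. In WT it was 0.696 and 0.751 with LPS and 0.492 and 0.602 untreated. The ratio was higher in all 4 LPS libraries than in all 4 untreated ones. For Nrip1 over the p160 sum the range was 0.114 to 0.252 with LPS and 0.0845 to 0.114 untreated. The ratio of Ncoa3 to Ncoa1 was 3.34 to 3.86 with LPS and 2.56 to 3.27 untreated.

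**Figure D2:**
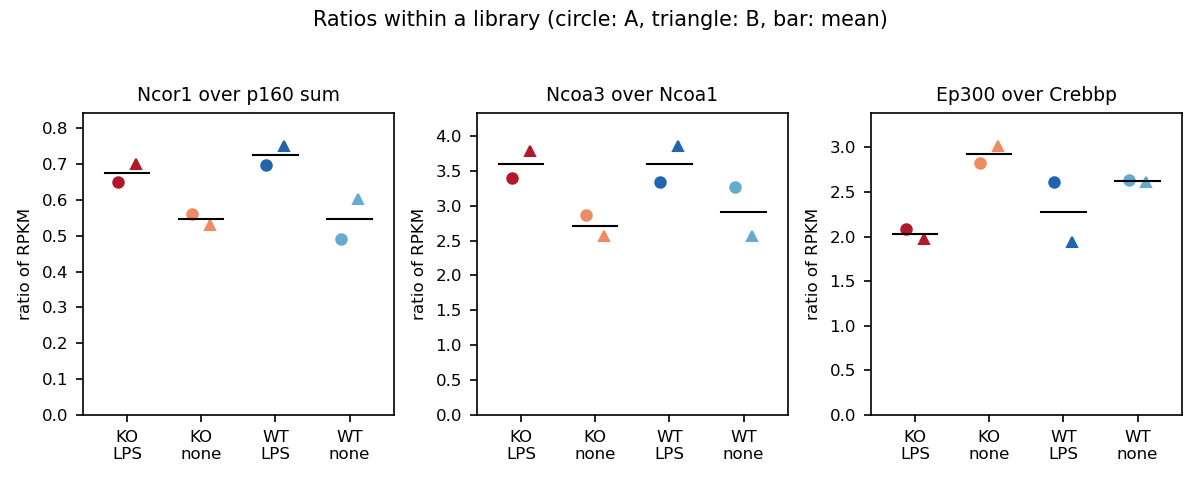
Ratio of RPKM within a library (vertical axes, from 0) for Ncor1 over the p160 sum, Ncoa3 over Ncoa1 and Ep300 over Crebbp, in the order KO with LPS, KO untreated, WT with LPS, WT untreated; circles are library A, triangles library B and bars the mean of the 2. The first 2 ratios are higher in all LPS libraries (0.649 to 0.751 and 3.34 to 3.86) than in all untreated ones, and the ratio of Ep300 to Crebbp meets at 2.61.

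Within each genotype, with 2 libraries against 2, no coregulator was called for LPS, in KO (background 6.62% of loci) or in WT (6.31%). With the library letter as a replicate block the same held, while the background moved to 14.3% in KO and 16.1% in WT. At an unadjusted p under 0.05 there were 3 of the 9 genes in KO and 3 in WT, beside 3292 and 3300 of the 11272 loci. Calls came only from the contrast averaged over genotypes, and without 1 library, KO with LPS B, none of the 3 genes was called (adjusted p = 0.0733 for Ncoa1, 0.128 for Ncoa3 and 0.0581 for Ppargc1b). Without WT untreated A or WT untreated B, Ppargc1b was at -1.56 and -1.22, and Ncoa1 and Ncoa3 were no longer called. In each of these fits a smaller share of all loci was called lower than with all 8 libraries.

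KO untreated B was the highest of the 8 libraries for Ncoa1, Ncoa2, Ncoa3, Ep300, Crebbp and Ncor1. It was also highest for the summed B cell (1586 RPKM), mast cell (82.9), T and NK cell (25.8) and large peritoneal macrophage markers (131.5). Among the macrophage markers, KO untreated B was highest for Emr1 (709 RPKM), Fcgr1 (17.3) and Mertk (25.3), and not for Csf1r, Cd68 or Lyz2. Without it, Ncoa1 was at -0.71 (adjusted p = 0.0378), Ppargc1b at -1.30 (adjusted p = 0.0402) and Ncoa3 at -0.47 (adjusted p = 0.0771), the last no longer called. The summed macrophage markers, most of the sum being Lyz2, were lower with LPS within each genotype, at 6660 and 5755 RPKM against 10690 and 17270 in KO, and at 18960 and 14250 against 30950 and 34740 in WT. The markers did not all move together: Emr1 had 454 and 454 RPKM in KO with LPS and 278 and 709 in KO untreated, and 450 and 424 RPKM in WT with LPS, above the 409 and 396 of WT untreated. The neutrophil marker sum, nearly all S100a8, was higher in all 4 LPS libraries than in all 4 untreated ones. S100a9 did not follow it, at 0 and 0 RPKM in KO with LPS and 0 and 5.63 in KO untreated. In WT S100a9 had 2.03 and 0 RPKM with LPS and 0 and 3.24 untreated. Mpo was above 0 only in KO untreated B, at 0.929 RPKM. The part of these markers in the LPS changes of the coregulators was not tested. In RNA from a whole preparation, fewer cells of a type and less RNA per cell cannot be told apart.

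MED1 loss gave no call among the 9 genes in any contrast. Averaged over treatments (4 KO libraries against 4 WT libraries) 0.0355% of the loci were called, and at an unadjusted p under 0.05 there were 472 loci and 0 of the 9 genes. With LPS 0.00887% of the loci were called, and without LPS 0.0266%. For every gene the KO and WT libraries overlapped, while 0.248% of all loci lay lower and 1.01% higher in all 4 KO libraries than in all 4 WT libraries. The largest averaged differences were those of Ppargc1b, -0.34 (95% interval -1.02 to 0.34), Nrip1, -0.20 (-0.65 to 0.24), and Ncoa6, -0.17 (-0.48 to 0.14), each with a limma adjusted p of 0.999. Of the 9 genes, Ncoa6 and Ppargc1b were lower in KO in 4 of 4 pairs of the same letter and treatment, an order that 5.3% of all loci tested showed. B cell markers summed to 1332 and 918 RPKM in KO with LPS, against 576 and 378 in WT with LPS. Untreated, they summed to 535 and 1586 RPKM in KO and 590 and 515 in WT. The summed macrophage markers, mostly Lyz2, were lower in KO within each treatment, while Emr1 and Cd68 were not. With LPS, Cd68 had 747.5 and 498.5 RPKM in KO (A, B) and 521.5 and 222.3 in WT. Csf1r, Fcgr1 and Mertk were lower in both KO libraries with LPS than in both WT ones, as were 11.7% of all loci. Untreated, the KO and WT values of these and of Cd68 overlapped. The part of these markers in the differences between KO and WT was not tested.

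The 95% intervals of the averaged difference show which sizes these libraries do not exclude. For Crebbp the interval of KO minus WT was -0.30 to 0.35, for Ep300 -0.34 to 0.40, and for Ncor1 -0.31 to 0.43. For Ncoa3 it was -0.28 to 0.49, for Ncoa1 -0.30 to 0.58, and for Ncoa2 -0.43 to 0.60. The interval of Ppargc1b was the widest of the 9.

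By treatment, Nrip1 had 4.25 and 4.89 RPKM in KO with LPS, both below the 5.51 and 7.24 of WT with LPS, an order that 11.7% of all loci showed. The difference was -0.40 (95% interval -1.02 to 0.23, adjusted p = 1.0). Ncoa6 had 15.3 and 15.2 RPKM in KO untreated, both below the 16.3 and 17.7 of WT untreated, as 5.86% of loci did. Crebbp was the other way round with LPS, at 9.29 and 8.995 RPKM in KO above 8.20 and 8.61 in WT, as 18.7% of loci were.

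The interaction, which is the LPS change in KO minus that in WT, was called for none of the 9 genes, with a background of 0.0355% of loci and 184 loci at an unadjusted p under 0.05. It was furthest from 0 for Nrip1, at -0.39 (SE 0.38, 95% interval -1.27 to 0.50), where the LPS change was -0.20 in KO and 0.19 in WT. For Ncoa1 it was -0.13 (95% interval -1.01 to 0.76). These intervals include differences as large as the LPS changes themselves.

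**Figure D3:**
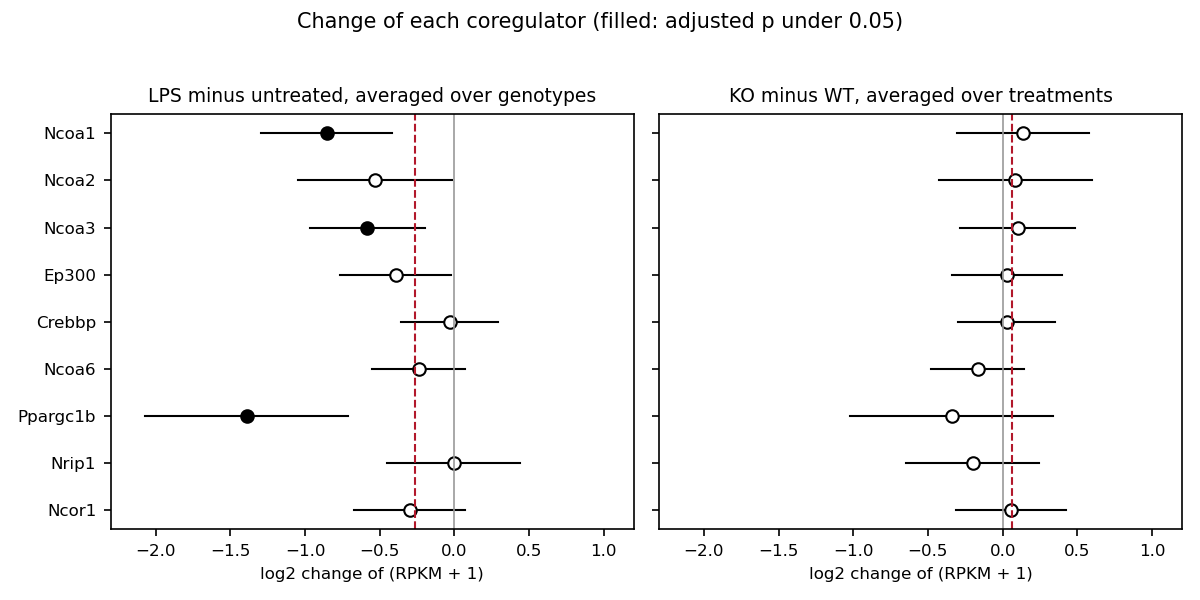
Log2 change of (RPKM + 1) of each coregulator (horizontal axes) for LPS minus untreated, averaged over genotypes (left), and KO minus WT, averaged over treatments (right); bars are 95% intervals, filled points have an adjusted p under 0.05 and the dashed line is the median of all loci tested. Ncoa1, Ncoa3 and Ppargc1b are filled on the left, at -0.86, -0.58 and -1.39, and no point is filled on the right.

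The order of the levels differed between the states. With LPS it was Ncor1 (24.3 RPKM), Ncoa3 (21.0), Ep300 (18.8), Ncoa6 (13.5), Crebbp (8.77), Ncoa2 (8.15), Ncoa1 (5.88), Nrip1 (5.47) and Ppargc1b (0.657), as means of 4 libraries. Untreated, Ncoa3 (32.1 RPKM) came first, then Ncor1 (30.3), Ep300 (25.1), Ncoa6 (16.1), Ncoa2 (12.1), Ncoa1 (11.5), Crebbp (9.02), Nrip1 (5.49) and Ppargc1b (3.2). Neighbours with ranges apart were Ep300 and Ncoa6, Ncoa6 and Crebbp, and Nrip1 and Ppargc1b with LPS, and Ep300 and Ncoa6, and Crebbp and Nrip1 untreated. The other neighbours overlapped, among them Ncor1 and Ncoa3 in both states.

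How the genes varied together across the 8 libraries is given as correlations of log2(RPKM + 1), with no test, since these points share the LPS grouping and the scaling of each library. Pearson r was 0.98 between Ncor1 and Ncoa2, 0.97 between Ep300 and Ncoa1, and 0.97 between Ncoa1 and Ncoa3. Nrip1 had r of 0.07 to 0.39 with the other 8 genes. Loci with a mean of at least 5 RPKM and a usual gene symbol, leaving out predicted and clone names, were compared with each called gene. There were 7599 such loci for Ncoa1 and for Ncoa3 and 7600 for Ppargc1b, and only the 3 with the highest r are named. Those most like Ncoa1 were Gypc (r = 0.995), Khk (0.992) and Nono (0.992). For Ncoa3 they were Ulk3 (0.987), Sepp1 (0.986) and Gba2 (0.986), and for Ppargc1b Tef (0.994), Echs1 (0.993) and Def8 (0.989).

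The partner genes of the coregulators were taken from 6 lists with 54 genes, of which 52 were found and 51 tested. With LPS averaged over genotypes 2 rose and 7 fell, beside 8.46% and 21.8% of all loci. In the contrasts within a genotype, 0 rose and 2 fell in KO (beside 3.31% of loci in each direction), and 1 rose and 1 fell in WT (beside 3.17% and 3.14%). None was called for MED1 loss or the interaction. Of the partners, Ppargc1a, the founding PGC-1 gene, was below the filter, at 0 to 0.116 RPKM.

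In the list of corepressor complex genes 2 of 11 genes fell with LPS and none rose, with a median of -0.31. Tbl1x, which with its paralog Tbl1xr1 exchanges the corepressor for coactivators, had 9.64 and 9.21 RPKM in KO with LPS and 23.8 and 25.1 in KO untreated, against 14.03 and 9.46 in WT with LPS and 27.7 and 20.7 in WT untreated. The LPS libraries were all below the untreated ones, and Tbl1x fell by 1.14 (SE 0.17, limma adjusted p = 0.00544), a call kept in all 16 alternatives. Tbl1xr1 averaged 10.8 ± 1.79 RPKM with LPS and 19.1 ± 3.29 untreated and fell by 0.77 (adjusted p = 0.0219), a call held in 11 of 16 alternatives. The deacetylase Hdac3, which gives the complex its enzyme activity, was at -0.25 (limma adjusted p = 0.153). That change and the list median lie close to the median of all loci, -0.26.

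Among 6 NRIP1 partners and other LXXLL corepressors, 1 fell with LPS and none rose, with a median of -0.13. Under median-ratio scaling the median was 0.14, and Hdac9, a deacetylase, was called higher beside the fall of Dnmt1. Hdac9 had 9.11 and 18.2 RPKM in KO with LPS and 4.27 and 15.9 in KO untreated, against 14.8 and 16.5 in WT with LPS and 5.03 and 4.85 in WT untreated, so the LPS and untreated ranges overlapped. The gene that fell as deposited was Dnmt1, the maintenance DNA methyltransferase. It had 7.48 and 6.29 RPKM in KO with LPS and 24.8 and 17.9 in KO untreated, against 8.01 and 3.54 in WT with LPS and 23.3 and 17.9 in WT untreated. The gap between the LPS and untreated libraries was wide, and Dnmt1 fell by 1.62 (SE 0.25, limma adjusted p = 0.00587). Within a genotype the change of Dnmt1 was -1.49 in KO (adjusted p = 0.0498) and -1.74 in WT (adjusted p = 0.0336), calls held in 6 and 10 of 16 alternatives, while the averaged call held in all 16.

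Of 11 p160 partners 2 fell with LPS and none rose, with a median of -0.14 that became 0.12 under median-ratio scaling. Ncoa4, which also carries ferritin to the lysosome, averaged 39.2 ± 10.7 RPKM with LPS and 76.5 ± 13.1 untreated and fell by 0.97 (adjusted p = 0.0237), a call held in 11 of 16 alternatives. Kat2a, the acetyltransferase GCN5, averaged 6.97 ± 2.21 RPKM with LPS and 12.1 ± 0.731 untreated and fell by 0.76 (adjusted p = 0.0369), a call held in 7 of 16 alternatives and lost under median-ratio scaling.

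In the NCOA6 methyltransferase complex 2 of 9 genes fell with LPS and none rose, with a median of -0.41. Dpy30, a core subunit, averaged 8.52 ± 3.11 RPKM with LPS and 17.0 ± 1.95 untreated and fell by 0.97 (adjusted p = 0.0287), a call held in 8 of 16 alternatives and lost under median-ratio scaling. Pagr1a, a subunit shared by the MLL3 and MLL4 forms, averaged 14.04 ± 2.18 RPKM with LPS and 22.3 ± 1.94 untreated and fell by 0.64 (adjusted p = 0.02), a call held in 13 of 16 alternatives.

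The PGC-1 family and its partners gave no call among 7 tested genes, with a median of 0.12, although 3 rose under median-ratio scaling, Esrra, Gabpb1 and Pprc1, and Esrra and Gabpb1 did so under quantile normalization. Of the 11272 loci tested, 1586 were called higher under median-ratio scaling (14.1%) and 1352 under quantile normalization, against 954 as deposited. Pprc1, the PGC-1-related coactivator, had a mean of 15.9 ± 3.11 RPKM with LPS and 12.4 ± 2.36 untreated, a change of 0.34 (adjusted p = 0.207) beside the fall of its relative Ppargc1b.

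Of the 7 partners of CBP and p300 in LPS signalling 2 rose and none fell, with a median of 0.38. Hif1a, the hypoxia-inducible factor subunit, had 68.1 and 145 RPKM in KO with LPS and 41.9 and 54.1 in KO untreated, against 182 and 210 in WT with LPS and 49.3 and 53.0 in WT untreated. Every LPS library was above every untreated one, and Hif1a rose by 1.48 (SE 0.25, limma adjusted p = 0.00742), a call held in all 16 alternatives. Rela, the p65 subunit of NF-kB, averaged 63.3 ± 8.31 RPKM with LPS and 39.4 ± 2.90 untreated and rose by 0.67 (adjusted p = 0.0164), a call held in 14 of 16 alternatives. Ep300 and Crebbp themselves were not called, as given above.

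**Figure D4:**
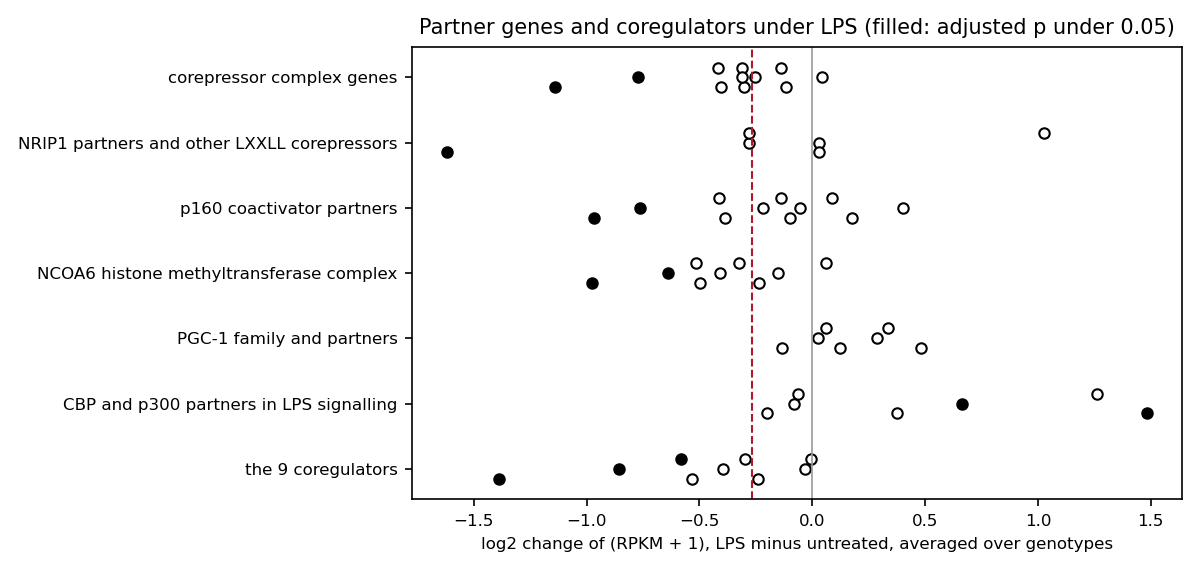
Log2 change of (RPKM + 1) with LPS, averaged over genotypes (horizontal axis), for each gene of the 6 partner lists and the 9 coregulators (rows); filled points have an adjusted p under 0.05, the dashed line is the median of all loci tested and the height of a point within its row carries no meaning. The filled points lie below 0 except in the row of CBP and p300 partners, where Hif1a (1.48) and Rela (0.67) lie above it.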

How the data were processed

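RNA sequencing measured 8 libraries in 4 groups of 2. Per the submitters' processing notes, bcl2fastq, TopHat2 2.0.14, Cufflinks 2.2.1 and the mm9 genome were used. The deposited values are RPKM computed by the authors, in 1 table of 24192 lines, of which 457 repeat a locus and were used once. No source used here gives the gene annotation, the strandedness or the read counts. Depth was therefore estimated from the steps between low values, with a scale from 474 genes with 1 annotated transcript (quartiles 13.0 and 14.7 M reads for the deepest library).

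Loci that reached 1 RPKM in 2 or more libraries were analysed as log2(RPKM + 1) in R 4.3.3 with limma 3.58.1, with 1 mean per group, a variance trend in the moderation, two-sided tests and Benjamini-Hochberg adjustment over all 11272 loci. The 7 contrasts were LPS in each genotype and averaged, MED1 loss in each treatment and averaged, and the interaction. Adjusted p-values come from this fit, SE and 95% intervals too. Tables came from Python 3.11.15 (pandas 2.3.3, numpy 2.4.6), figures from matplotlib 3.10.9. The test was tried on simulated data with known changes.

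The 9 genes and the partner lists were chosen with earlier results of these data known. All 9 were named, then Med1, up to 3 called genes per partner list and the 3 loci most like each coregulator called with LPS. Alternatives changed the pseudocount, filter, scaling, variance trend, replicate block and the libraries kept, 1 choice at a time. Libraries of the same letter deviated together in all 6 pairs of groups (r of 0.20 to 0.41 across loci), a pattern in the data, since the labels do not say what the letters mark. The fit behind the printed values has no term for the letter, and the replicate block is the alternative that pairs them. Gene positions and coding sequence came from GENCODE vM1 on mm9, and promoters from RefSeq on GRCm38.p6. Of the cell type markers, 1 was not matched (Ly6g), and of the partners, Bcor and Hdac5. The values of 1 partner gene are not reported here.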

Additional observations from a re-analysis of the deposited data

How the results depend on the processing

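The number of coregulators called with LPS averaged over genotypes was 3, and it ran from 0 to 4 when 1 library was left out. It was 0 without KO with LPS B, 1 without either untreated WT library (Ppargc1b), 2 without KO with LPS A, KO untreated B or WT with LPS B (Ncoa3 lost), and 4 without WT with LPS A (Ncoa2 gained). The share of all loci called lower moved with this count. It was smallest without KO with LPS B and largest without WT with LPS A. The cause was not tested. Within a genotype the count was 0 and ran from 0 to 1 in both KO and WT. Ppargc1b was the gene called, in KO without WT with LPS A or B, and in WT without WT with LPS A. In these fits the lone library of a group was assumed to vary like the others. The counts for MED1 loss and for the interaction were 0 in every alternative. Under median-ratio scaling and quantile normalization 2 coregulators were called, Ncoa1 and Ppargc1b, both lower. Of all loci tested, 13.5% and 15.4% were called lower in these 2 settings, against 21.8% as deposited. Scaling also moved the share of lower among all loci called with LPS, which was 72.0% as deposited, 49.0% under median-ratio scaling and 56.2% under quantile normalization. With the replicate block, which pairs libraries of the same letter, the count stayed at 3 (adjusted p = 0.0155 for Ncoa1, 0.0308 for Ncoa3 and 0.0121 for Ppargc1b), and no call of a coregulator changed in any contrast. With that block 26.7% of all loci tested were called lower with LPS averaged over genotypes. At a filter of 5 RPKM, Ppargc1b could not be fitted and 2 were called, beside 23.4% of the loci called lower. No called change of a coregulator reversed. Depth limits Ppargc1b most, with an estimated 5 to 159 reads a library. Its change ran from -2.46 to -0.54 over the alternatives, and both ends came from the change of pseudocount, which changes the scale. In the other alternatives it lay between -1.66 and -1.12.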
